A study of Rattus norvegicus with 4 samples.

Results

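The pre-mRNA splicing machinery of the rat β-cell line INS-1 832/13 was examined through 68 protein-coding genes named Srsf, Hnrnp, Sf3a, Sf3b, U2af, Snrp or Prpf, out of 15172 genes with a row in the deposited table. The members were taken by name alone, so that all genes with these name beginnings and the biotype protein_coding were included. They fell into 6 families: 11 SR protein genes (Srsf), 19 hnRNP genes (Hnrnp), 9 SF3A and SF3B genes, 3 U2AF genes, 13 snRNP protein genes (Snrp) and 13 pre-mRNA processing factor genes (Prpf). All 68 had counts high enough to be tested.

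RNA was sequenced from insulinoma cells transfected for 36 h with a pool of siRNAs against Tbk1 (siTbk1) or with a non-targeting siRNA (siScramble), both delivered with DharmaFECT. Each group had 2 libraries, numbered 2 and 3 by the labels. The comparison asks how depletion of TBK1, an innate immune and autophagy kinase, alters gene expression in β-cells under basal culture. INS-1 832/13 is 1 clonal line grown with serum and β-mercaptoethanol, and nothing states that the libraries came from separate cultures, so the p-values measure only the spread between these libraries, which may be technical.

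Library totals lay between 38428926 and 47759013 estimated counts, and the 68 genes took 1.34% to 1.41% of each library. The targeted gene Tbk1 had 2315 and 2261 normalized counts in siScramble and 510 and 575 in siTbk1. Normalized counts are counts scaled by library size and TMM factor to a common total. Of 15 β-cell marker genes 14 were listed, and their summed level was 15199.5 and 16006.5 counts per 1000000 (CPM) in siScramble and 11858.6 and 10556.6 in siTbk1. Most of this sum was Ins1, and without it the sum was 4688 and 4686 in siScramble and 4452 and 4424 in siTbk1. Of the 14, 7 fell, among them Ins1 and Mafa, while Iapp, Pcsk1, Slc30a8 and Nkx6-1 rose. The exocrine marker Sox9, the only 1 of 6 listed, was under 0.391 CPM in all libraries, the 3 listed markers of fibroblasts, endothelium and leukocytes together ranged from 3.14 to 9.84, nearly all of it the endothelial receptor Kdr, which fell, with Cd68 and Adgre1 at no more than 0.335, and glucagon (Gcg) fell with siTbk1 within the other islet list, whose sum ranged from 803 to 1407. The part of these shifts in the splicing genes was not tested, and less RNA per cell cannot be told apart from fewer cells expressing a gene.

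Splicing removes introns in a stepwise assembly. U2AF binds the 3′ end of an intron and recruits the U2 snRNP, whose SF3A and SF3B subunits hold the branch point, while the U1 snRNP marks the 5′ end. The Sm proteins form the ring of the spliceosomal snRNPs, Prpf proteins act in the tri-snRNP and in the catalytic core, and SR proteins and hnRNPs bind exons and introns to promote or repress the use of nearby splice sites. Gene counts sum all isoforms of a gene, so exon use was not analysed here.

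With siTbk1, 22 of the 68 genes (32.4%) rose and 16 (23.5%) fell at an adjusted p under 0.05, beside 24.4% higher and 24.8% lower among all 13953 genes tested. Together that is 38 of the 68 members, beside 49.2% of all tested genes in either direction. The members have high counts. Of the 11308 tested genes with a siScramble mean at least that of the lowest member, 27.6% were higher and 28.9% lower. These genes were not matched in level, with a median siScramble mean of 1465 normalized counts, beside 4313 for the members. Each p-value comes from the quasi-likelihood test of edgeR, adjusted by Benjamini-Hochberg over all tested genes, and is abbreviated as the edgeR adjusted p. The count was 15 and 19 when libraries were scaled by library size alone and 29 and 11 when a trend with genomic span was removed, and 12 rose without siScramble 3 and 7 fell without siTbk1 3. The call was kept in all 10 alternatives that used the 4 libraries, and with each library left out, by 11 genes that rose, among them Srsf1, Hnrnpu, Hnrnpul2, Hnrnph2, Sf3b1, Snrpf, Snrpb2, Prpf8, Prpf4b and the row named Snrpe, whose locus is uncertain, and 6 that fell (Sf3b5, Sf3a2, Sf3b4, Snrpb, Snrpa and Prpf40b). With a fold of at least 1.5 in addition, Srsf12 rose and Sf3b5 and Sf3a2 fell, which is 1.47% and 2.94% of the members beside 4.81% and 6.18% of all tested genes. The log2 fold changes ran from -0.65 to 0.67, and their median size without sign was 0.17, beside 0.25 for all tested genes. The groups did not overlap in the direction of higher siTbk1 levels for 35 members and in the direction of lower for 21, beside 38.7% and 37.9% of all tested genes. In either direction this was 82.4% of the members, beside 76.6% of all tested genes and 81.5% of those at or above the level of the lowest member. The groups were apart in this sense for every member that passed, so for those genes it adds nothing to the adjusted p.

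**Figure D1:**
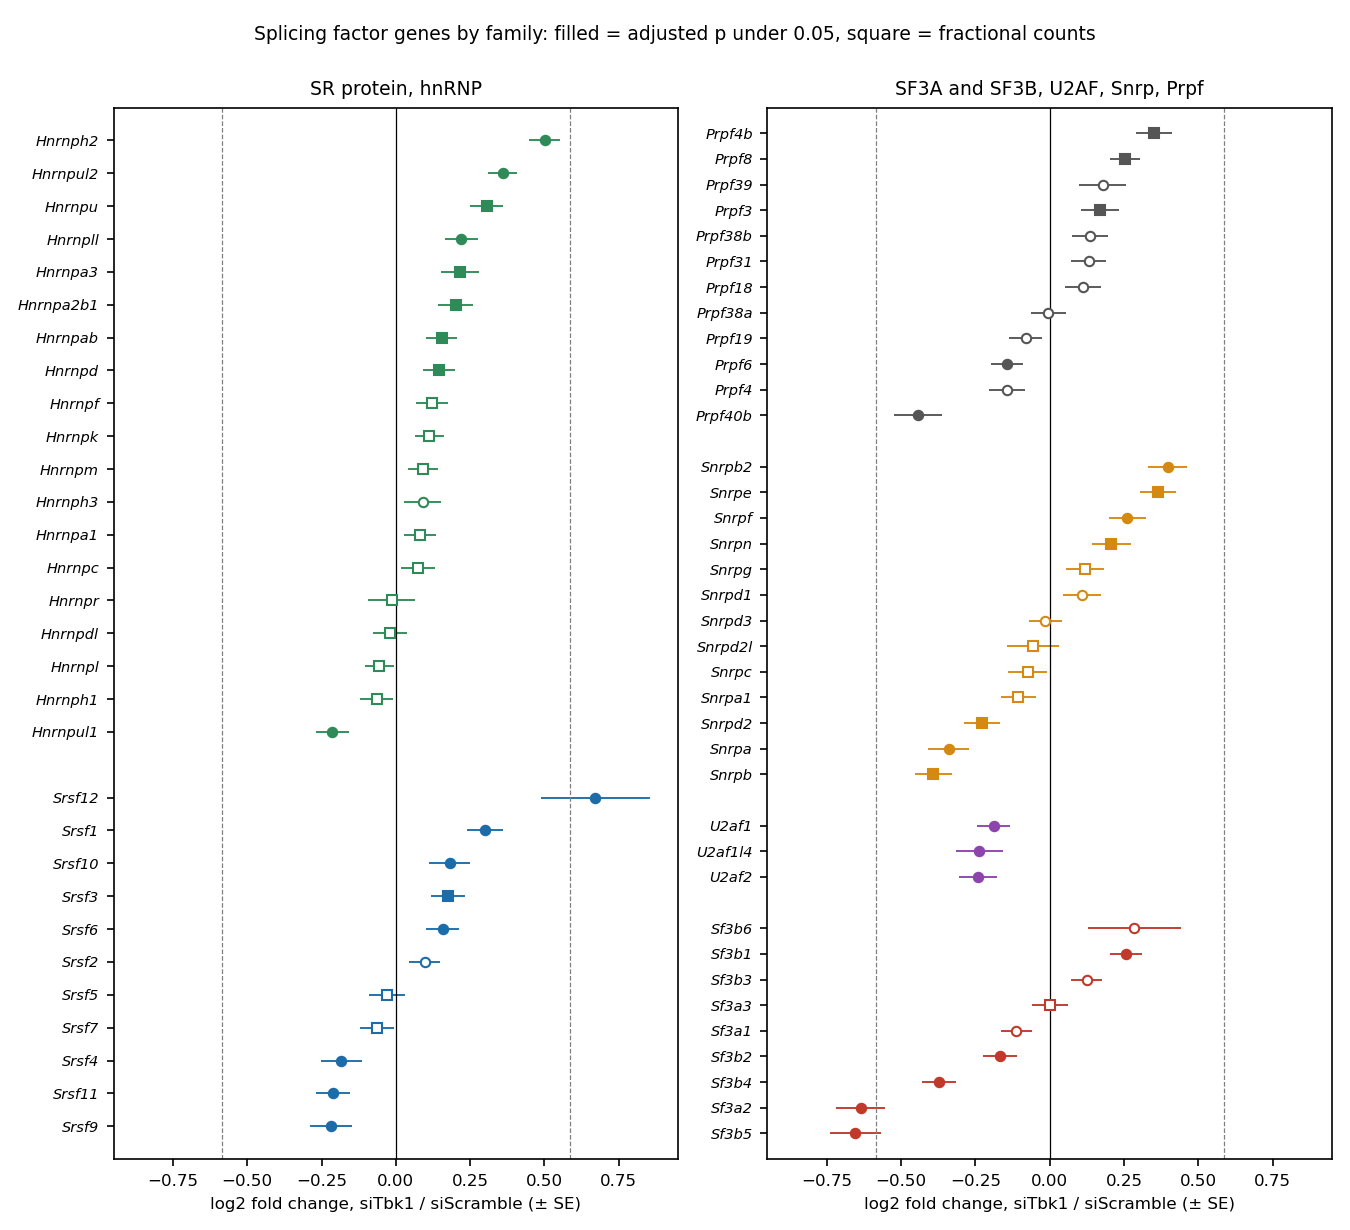
Log2 fold change of siTbk1 over siScramble with its standard error for 67 of the 68 genes, grouped by family, with filled symbols for an edgeR adjusted p under 0.05, squares for genes with fractional counts and dashed lines at a fold of 1.5 in either direction. The 3 U2AF genes sit left of 0, Sf3b5 and Sf3a2 lie beyond the left dashed line and Srsf12 beyond the right one.

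The largest falls among the members were those of Sf3b5 and Sf3a2, of the U2 branch of early assembly. Next came Prpf40b and Snrpb, of other families, at log2 fold changes of -0.44 and -0.39. Of 9 SF3A and SF3B genes, 4 fell (44.4%), 1 rose (11.1%) and 4 did not pass, with a median log2 fold change of -0.11. All 3 U2AF genes fell, with a median of -0.24. Over all tested genes, 24.8% fell and 24.4% rose. The median over all tested genes was 0.01. The promoters of the 2 SF3 genes past the fold limit and of 2 of the U2AF genes are given here because these genes fell together, and each line shows the 150 bases before the transcription start in RefSeq assembly GRCr8, 5′ to 3′ in the direction of the gene. The stretches are chr1:9177039-9177188 on the plus strand for Sf3b5, chr7:9566206-9566355 on the minus strand for Sf3a2, chr20:9755095-9755244 on the minus strand for U2af1 and chr1:94943611-94943760 on the plus strand for U2af1l4. Capitals mark any of 7 searched motifs on either strand: the CRE (TGACGTCA), the E-box (CACGTG), the ETS site (CCGGAAG), the GC box (GGGCGG), the CCAAT box (CCAAT), the YY1 site (AAGATGG) and the TATA box (TATAAA).
Sf3b5: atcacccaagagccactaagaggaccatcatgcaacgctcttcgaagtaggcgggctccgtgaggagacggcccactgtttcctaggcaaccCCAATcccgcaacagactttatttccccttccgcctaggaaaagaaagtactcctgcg
Sf3a2: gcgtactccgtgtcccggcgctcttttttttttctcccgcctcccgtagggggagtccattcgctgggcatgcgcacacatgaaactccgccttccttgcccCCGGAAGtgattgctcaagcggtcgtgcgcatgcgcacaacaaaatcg
U2af1: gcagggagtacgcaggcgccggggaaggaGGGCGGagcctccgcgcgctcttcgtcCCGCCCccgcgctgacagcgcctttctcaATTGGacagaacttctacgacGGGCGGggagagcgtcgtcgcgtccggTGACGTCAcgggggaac
U2af1l4: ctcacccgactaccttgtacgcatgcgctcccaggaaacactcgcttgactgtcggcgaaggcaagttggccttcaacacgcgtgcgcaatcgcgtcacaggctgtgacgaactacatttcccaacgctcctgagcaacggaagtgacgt
Sf3b5 held a CCAAT box, Sf3a2 an ETS site, and U2af1 3 GC boxes, a CCAAT box and a CRE, while these letters did not occur in the U2af1l4 stretch.

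A RefSeq promoter could be matched to 60 of the 68 members, and the 250 bases before the start were searched. An ETS site was found in 16 of the 60 (26.7%), beside 15.5% of the 9077 tested genes with a single window and 7.27% of all 33469 promoters. A CCAAT box was found in 28 (46.7%, beside 35.5% and 34%) and a GC box in 31 (51.7%, beside 60.3% and 30.5%). The CRE was found in U2af1 and Snrpg (3.33%, beside 2.95% and 1.59%) and the YY1 site likewise in 2 (3.33%, beside 4.42% and 4.62%). A TATA box was found in 6 (10%, beside 5.87% and 12.9%). The E-box was found in Srsf3, Hnrnpm, Hnrnpd, Hnrnph2, Prpf3 and Prpf39 (10%, beside 8.22% and 5.59%), which is 4 of 19 members that rose and 0 of the 14 that fell, among those with a window. By the same split the TATA box was in 3 and 0, the ETS site in 3 and 5, the GC box in 9 and 9, the CCAAT box in 10 and 5, the CRE in 0 and 1 and the YY1 site in 0 and 0. Only 1 pair of matches to different motifs overlapped in the 60 windows. These shares describe letters and were not tested. Srsf10, Hnrnpdl, Hnrnpf, Hnrnpll, Sf3b2, U2af2 and Snrpd2l were among those with no single window, and the windows of Snrpe and Snrpg lie on other chromosomes than their rows in the table.

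Sf3b5 encodes a small subunit of the SF3B complex and lies on chromosome 1 from 7101715 to 7102427 in rn6. It had 3085 and 3404 normalized counts in siScramble and 2259 and 1854 in siTbk1. Both siTbk1 libraries were below both siScramble libraries, and the means were 3244 ± 226 and 2056 ± 286 (SD, n = 2). Sf3b5 fell by 36.4%, a log2 fold change of -0.65 with a standard error of 0.09 (edgeR adjusted p = 8.4e-05). Sf3a2, a subunit of the SF3A complex on chromosome 7 from 11777826 to 11783850, had 1561 and 1825 normalized counts in siScramble and 1125 and 1047 in siTbk1. Again the groups were apart, and Sf3a2 fell by 35.7% (log2 fold change -0.64, SE 0.08, edgeR adjusted p = 7.8e-05). Without siScramble 3 the log2 fold changes were -0.58 for Sf3b5 and -0.52 for Sf3a2, and without siTbk1 3 that of Sf3b5 was -0.52, all short of the fold limit, as were those of both genes after removal of the span trend.

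Sf3b4, which helps bind pre-mRNA beside the branch point, had 4113 and 4355 normalized counts in siScramble and 3326 and 3214 in siTbk1, and it fell by 22.7% (edgeR adjusted p = 0.00025). Sf3b2, which pairs with Sf3b4, fell by 0.17 on the log2 scale (edgeR adjusted p = 0.028), though it did not pass without siScramble 2 or siTbk1 3 (edgeR adjusted p = 0.11 and 0.27). The largest subunit moved the other way. Sf3b1, the scaffold that contacts the branch helix, had 16897 and 15775 normalized counts in siScramble and 19109 and 19914 in siTbk1. It rose by 19.4% (log2 fold change 0.26, SE 0.05, edgeR adjusted p = 0.0021), and the groups were apart. The others did not pass: Sf3a1 had a log2 fold change of -0.11, Sf3a3 of 0.00, Sf3b3 of 0.12 and Sf3b6, at 175 to 248 normalized counts, of 0.29 (edgeR adjusted p = 0.15). Sf3b6 passed without siTbk1 2 (0.48, edgeR adjusted p = 0.019), and Sf3a1 passed with library size alone (-0.16, edgeR adjusted p = 0.02). Phf5a, a further SF3B subunit outside the name rule that was picked after its values were seen, fell by 18.1%.

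U2AF is a heterodimer whose large subunit U2af2 binds the polypyrimidine tract and whose small subunit U2af1 reads the AG at the intron end. U2af2 had 8547 and 8338 normalized counts in siScramble and 7602 and 6671 in siTbk1, and it fell by 15.4% (edgeR adjusted p = 0.0075). U2af1 had 5283 in both siScramble libraries and 4750 and 4517 in siTbk1, and it fell by 12.3% (edgeR adjusted p = 0.012). U2af1l4, a paralog of the small subunit, had 842 and 904 in siScramble and 759 and 721 in siTbk1, and it fell by 15.1% (edgeR adjusted p = 0.026). For all 3 the groups were apart, as for 76.6% of all tested genes. None of the 3 passed without siTbk1 3 (edgeR adjusted p = 0.11 to 0.14), nor did U2af1l4 without siScramble 3 (edgeR adjusted p = 0.16). After removal of the span trend, U2af2 passed (edgeR adjusted p = 0.017) and U2af1 and U2af1l4 did not (edgeR adjusted p = 0.095 and 0.18). The ratio of U2af1 to U2af2 counts was 0.618 and 0.634 in siScramble and 0.625 and 0.677 in siTbk1.

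**Figure D2:**
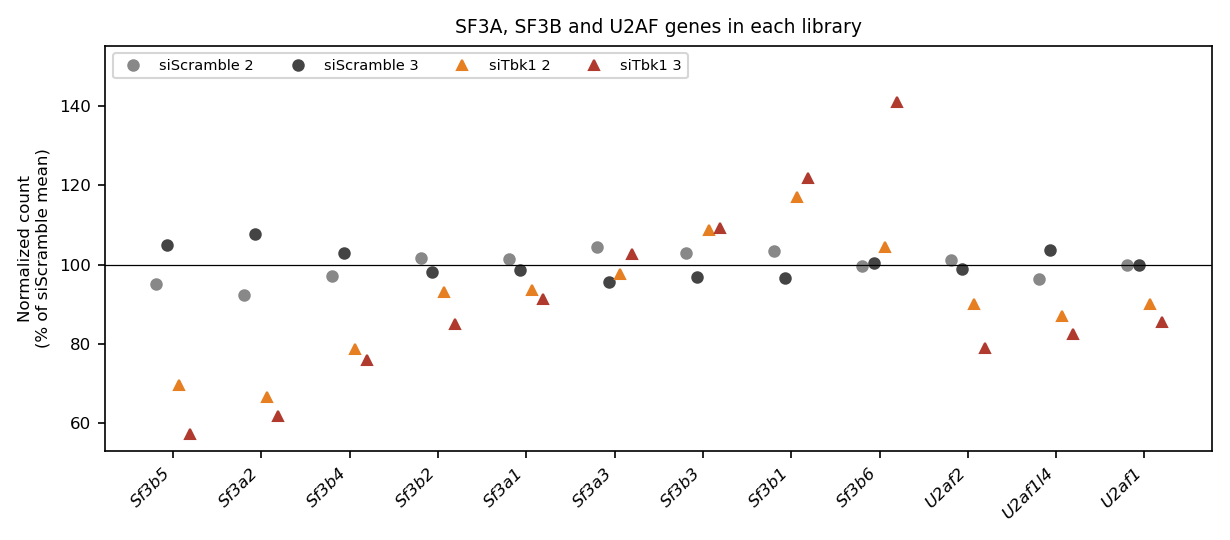
Normalized count of each SF3A, SF3B and U2AF gene in the 4 libraries as a percentage of its siScramble mean, with circles for siScramble and triangles for siTbk1. Both siTbk1 libraries lie below both siScramble libraries for Sf3b5, Sf3a2, Sf3b4, Sf3b2, Sf3a1 and the 3 U2AF genes. They lie above them for Sf3b1, Sf3b3 and Sf3b6. Of these genes, Sf3a1, Sf3b3 and Sf3b6 did not pass.

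The snRNP proteins split by gene. Of 13 Snrp genes, 4 rose (30.8%, beside 24.4% of all tested genes), 3 fell (23.1%, beside 24.8%) and 6 did not pass. Their median log2 fold change was -0.02, and it turned to 0.04 once the span trend was removed. Snrpb, a Sm ring protein, had 7477 and 8306 normalized counts in siScramble and 6197 and 5828 in siTbk1, and it fell by 23.8% (log2 fold change -0.39, SE 0.06, edgeR adjusted p = 0.0003). Snrpa, the A protein of the U1 snRNP, had 1419 and 1510 in siScramble and 1178 and 1133 in siTbk1, and it fell by 21% (edgeR adjusted p = 0.0015). Snrpd2, another ring protein, fell from 4530 and 4602 to 4093 and 3706 normalized counts (edgeR adjusted p = 0.0085). Snrpd2 did not pass without siTbk1 3 or with the span trend removed (edgeR adjusted p = 0.12 and 0.11). In these 3 genes each siTbk1 library was below both siScramble libraries, as in 37.9% of all tested genes. Snrnp70, the U1-70K protein, lies outside the name rule and was picked after its values were seen, and it fell by 24.6%, whereas the third U1 protein Snrpc had a log2 fold change of -0.07 and did not pass.

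Snrpb2, the U2B″ protein of the U2 snRNP, had 3006 and 2659 normalized counts in siScramble and 3797 and 3668 in siTbk1, and it rose by 31.7% (log2 fold change 0.40, SE 0.07, edgeR adjusted p = 0.00042). The row named Snrpe, after a Sm ring protein, had 3500 and 3673 in siScramble and 4422 and 4814 in siTbk1, and it rose by 28.7% (edgeR adjusted p = 0.00042). This row lies on chromosome 8 in rn6 with a span of 0.418 kb, whereas RefSeq GRCr8 has the gene Snrpe on chromosome 13, and which locus its reads came from was not tested. Snrpf, the neighbour of SNRPE in the ring, rose from 1599 and 1557 to 1845 and 1942 normalized counts (edgeR adjusted p = 0.0046). The ring proteins thus did not move one way: Snrpb and Snrpd2 fell, Snrpf and the row named Snrpe rose, and Snrpd1 and Snrpd3, at log2 fold changes of 0.11 and -0.02, did not pass. The row named Snrpg (0.12, not passed) spans 0.382 kb on chromosome 1, whereas RefSeq has that gene on chromosome 4. The U2 protein Snrpa1 and Snrpd2l, which RefSeq lists as a pseudogene, at -0.11 and -0.06, did not pass either. Snrpn, a tissue-restricted relative of Snrpb, had 1509 and 1443 normalized counts in siScramble and 1746 and 1662 in siTbk1 (log2 fold change 0.21, edgeR adjusted p = 0.019), and it did not pass without siScramble 3 or siTbk1 2 (edgeR adjusted p = 0.1 and 0.16). Its value is uncertain, because the Snrpn row overlaps the Snurf row on the same strand, and the sum of both rows was 9187 and 8907 in siScramble and 8752 and 8714 in siTbk1.

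**Figure D3:**
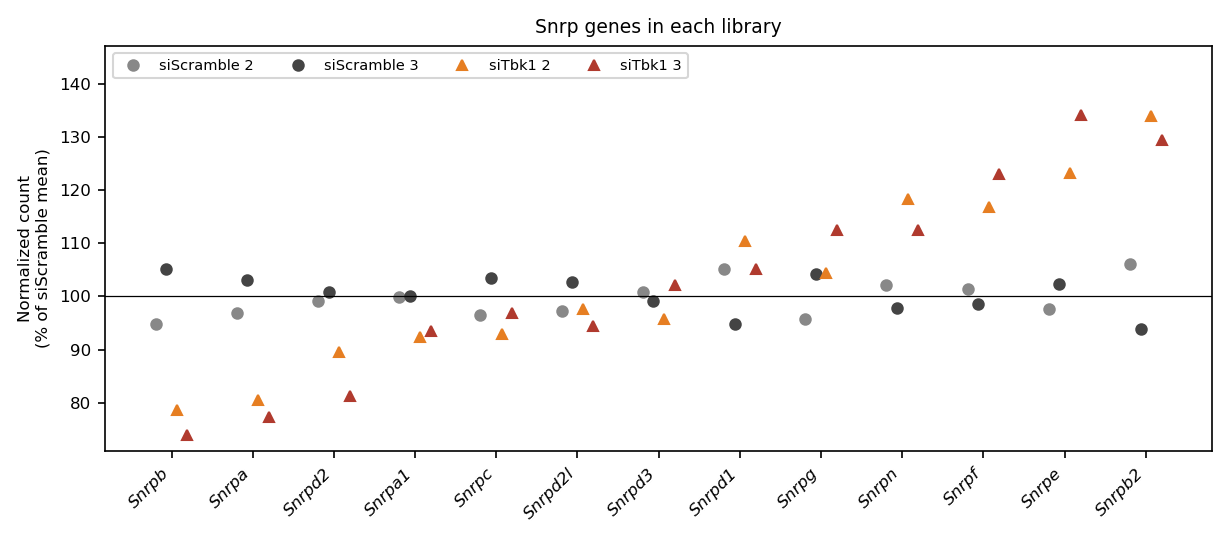
Normalized count of the 13 Snrp genes in the 4 libraries as a percentage of the siScramble mean, with circles for siScramble and triangles for siTbk1. The siTbk1 libraries lie below the siScramble libraries for Snrpb, Snrpa, Snrpd2 and Snrpa1 and above them for Snrpb2, Snrpe, Snrpf, Snrpn and Snrpg. Of these genes, Snrpa1 and Snrpg did not pass.

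SR proteins carry an RNA-recognition motif and a serine and arginine rich tail, and they mostly promote exon inclusion. Of 11 Srsf genes, 5 rose (45.5%, beside 24.4% of all tested genes), 3 fell (27.3%, beside 24.8%) and 3 did not pass. Their median log2 fold change was 0.10. Srsf12 had 136 and 90.3 normalized counts in siScramble and 182 and 183 in siTbk1, and it rose by 59.3% (log2 fold change 0.67, SE 0.18, edgeR adjusted p = 0.0093). It had the lowest counts of the SR genes, and without siScramble 3 its log2 fold change was 0.42 and it did not pass (edgeR adjusted p = 0.079). Srsf1, the founding member, had 17632 and 15759 normalized counts in siScramble and 20083 and 20990 in siTbk1. It rose by 23% (log2 fold change 0.30, SE 0.06, edgeR adjusted p = 0.0015), and the groups were apart.

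Srsf3, the smallest SR protein, had 18691 and 16952 normalized counts in siScramble and 19895 and 20395 in siTbk1, and it rose by 0.18 on the log2 scale (edgeR adjusted p = 0.023). Srsf6 and Srsf10 rose by 0.16 and 0.18 on the log2 scale (edgeR adjusted p = 0.031 and 0.044). Srsf9 fell from 1658 and 1777 normalized counts to 1539 and 1408 (log2 fold change -0.22, edgeR adjusted p = 0.022), Srsf11 by 0.21 and Srsf4 by 0.18 on the log2 scale. Of the SR genes only Srsf1 passed each time a library was left out. Without siScramble 3, the edgeR adjusted p was 0.26 for Srsf3, 0.22 for Srsf6, 0.17 for Srsf10, 0.12 for Srsf9 and 0.29 for Srsf4. Without siTbk1 3 it was 0.089, 0.18, 0.27, 0.18 and 0.24 for the same genes, and Srsf11 lost its call without siTbk1 2 (edgeR adjusted p = 0.059). Srsf6 and Srsf10 also lost it without siTbk1 2 (edgeR adjusted p = 0.062 and 0.063), and Srsf10 without siScramble 2 (edgeR adjusted p = 0.052). Srsf2, a speckle protein, had 8131 and 7888 normalized counts in siScramble and 8463 and 8669 in siTbk1, with a log2 fold change of 0.10 and a standard error of 0.05 that did not pass (edgeR adjusted p = 0.14), and with the span trend removed it passed at 0.20 (edgeR adjusted p = 0.012). Srsf5 and Srsf7, at log2 fold changes of -0.03 and -0.06, did not pass either.

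The hnRNPs coat nascent transcripts and often repress splice sites. Of 19 Hnrnp genes, 8 rose (42.1%, beside 24.4% of all tested genes), 1 fell (5.26%, beside 24.8%) and 10 did not pass. The family has high counts, with a median siScramble mean of 10871 normalized counts, beside 959 for all tested genes. Of the tested genes at or above the level of the lowest member, 27.6% rose and 28.9% fell. The median log2 fold change was 0.11, with 0.066 for library size alone and 0.17 with the span trend removed. Values were above 0 for 14, beside 7093 of all 13953 tested genes. Hnrnph2 had the largest change of the family. It lies on chromosome X from 105419285 to 105422862, and it had 6447 and 6099 normalized counts in siScramble and 8834 and 8918 in siTbk1, with means of 6273 ± 246 and 8876 ± 59.6 (SD, n = 2). It rose by 41.5% (log2 fold change 0.50, SE 0.05, edgeR adjusted p = 2.2e-05), with the groups apart. Its close relative Hnrnph1 had 13266 and 12461 normalized counts in siScramble and 11922 and 12693 in siTbk1, with overlapping groups (log2 fold change -0.06, edgeR adjusted p = 0.36). The promoters of this pair are shown because the 2 genes encode closely related proteins. They lie at chrX:102074099-102074248 and chr10:35194483-35194632, both on the plus strand of GRCr8, with capitals as above.
Hnrnph2: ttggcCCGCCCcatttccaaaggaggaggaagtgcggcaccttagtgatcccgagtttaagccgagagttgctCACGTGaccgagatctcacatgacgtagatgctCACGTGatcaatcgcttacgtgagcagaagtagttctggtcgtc
Hnrnph1: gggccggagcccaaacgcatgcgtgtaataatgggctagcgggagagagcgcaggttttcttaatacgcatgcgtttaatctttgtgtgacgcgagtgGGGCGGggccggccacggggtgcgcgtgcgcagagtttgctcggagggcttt
Both held a GC box, and Hnrnph2 also held 2 E-boxes.

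Hnrnpul2 had 14830 and 14847 normalized counts in siScramble and 18823 and 19236 in siTbk1, and it rose by 28.2% (log2 fold change 0.36, SE 0.05, edgeR adjusted p = 0.00012). Hnrnpu, the scaffold attachment factor A to which Hnrnpul2 is related, had 27979 and 26056 in siScramble and 32540 and 34271 in siTbk1, and it rose by 23.6% (edgeR adjusted p = 0.00075). The third gene of this subfamily was the only hnRNP gene that fell: Hnrnpul1 went from 10751 and 10992 to 9731 and 9004 normalized counts, a fall of 0.21 on the log2 scale (edgeR adjusted p = 0.0065). Hnrnpa2b1, a core particle protein, had 21594 and 19322 in siScramble and 23619 and 23433 in siTbk1, and it rose by 15% (edgeR adjusted p = 0.014). Hnrnpll, Hnrnpa3, Hnrnpab and Hnrnpd rose by 0.22, 0.22, 0.15 and 0.15 on the log2 scale. Without siScramble 3, Hnrnpa2b1, Hnrnpa3, Hnrnpab and Hnrnpd did not pass (edgeR adjusted p = 0.19, 0.16, 0.24 and 0.29), and without siTbk1 3 neither did Hnrnpul1, Hnrnpll, Hnrnpab and Hnrnpd (0.086, 0.057, 0.13 and 0.28). Hnrnpab, Hnrnpd and Hnrnpa3 likewise lost their call without siTbk1 2. Hnrnpa1, the partner of Hnrnpa2b1 in the core particle, had 47105 and 44227 normalized counts in siScramble and 48234 and 48328 in siTbk1, and Hnrnpk had 15364 and 15095 against 16333 and 16611. Neither passed, at log2 fold changes of 0.08 and 0.11 with standard errors of 0.05 (edgeR adjusted p = 0.23 and 0.078), while both passed with the span trend removed (log2 fold change 0.18 for each, edgeR adjusted p = 0.031 and 0.017). The remaining members, Hnrnpl, Hnrnpdl, Hnrnpr, Hnrnpc, Hnrnph3, Hnrnpm and Hnrnpf, had log2 fold changes between -0.06 and 0.12 and did not pass. Several hnRNP members have close copies elsewhere in the genome, and 14 of the 19 had fractional counts.

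Among the 13 Prpf genes, 4 rose (30.8%, beside 24.4% of all tested genes), 2 fell (15.4%, beside 24.8%) and 7 did not pass. Their median log2 fold change was 0.13. Prpf8, the large protein at the catalytic centre, had 44152 and 43309 normalized counts in siScramble and 51727 and 52418 in siTbk1, and it rose by 19.1% (log2 fold change 0.25, SE 0.05, edgeR adjusted p = 0.0014). Prpf4b, a nuclear kinase that phosphorylates spliceosome proteins, had 4578 and 4172 in siScramble and 5491 and 5680 in siTbk1, and it rose by 27.6% (edgeR adjusted p = 0.00047). Prpf40b, a U1-associated factor, had 1118 and 1223 in siScramble and 906 and 811 in siTbk1, and it fell by 26.4% (edgeR adjusted p = 0.00079). In these 3 genes the groups were apart, as in 76.6% of all tested genes. The tri-snRNP proteins Prpf3 and Prpf6 moved by 0.17 and -0.14 on the log2 scale (edgeR adjusted p = 0.043 and 0.044). Prpf6 did not pass when any 1 library was left out, and Prpf3 did not without siScramble 3, siTbk1 2 or siTbk1 3. Prpf31, a further tri-snRNP protein, had 2633 and 2537 normalized counts in siScramble and 2880 and 2780 in siTbk1 and did not pass (log2 fold change 0.13, edgeR adjusted p = 0.084), though it passed with the span trend removed (0.20, edgeR adjusted p = 0.016). The remaining Prpf4, Prpf18, Prpf19, Prpf38a, Prpf38b and Prpf39 had log2 fold changes between -0.14 and 0.18 and did not pass.

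The balance between some related genes differed between the groups, in some pairs with a change in only 1 of the genes. A ratio of counts within a library needs no scaling between libraries, and these pairs were picked after the values were seen, so the ratios are a description without a test. The ratio of Hnrnph2 to Hnrnph1 was 0.486 and 0.489 in siScramble and 0.741 and 0.703 in siTbk1. That of Hnrnpul2 to Hnrnpul1 was 1.38 and 1.35 in siScramble and 1.93 and 2.14 in siTbk1. The proteins of Snrpb2 and Snrpa are near relatives, and Snrpb2 to Snrpa stood at 2.12 and 1.76 in siScramble and 3.22 and 3.24 in siTbk1. For Snrpn to Snrpb the ratio was 0.202 and 0.174 against 0.282 and 0.285, with the same uncertainty from the Snurf overlap as above. Hnrnph1 did not pass, and neither did Sf3a3. All 4 ratios were 1.48 to 1.67 times as high in siTbk1 as in siScramble, with no overlap between the groups. In each of these 4 pairs the gene that rose was made the numerator. The ratio of U2af1 to U2af2, given above, was 1.04 times as high, with overlapping groups. Inside the SF3 complexes, Sf3b1 to Sf3b5 went from 5.48 and 4.63 to 8.46 and 10.7, and Sf3a3 to Sf3a2 from 3.42 and 2.67 to 4.43 and 5.00.

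**Figure D4:**
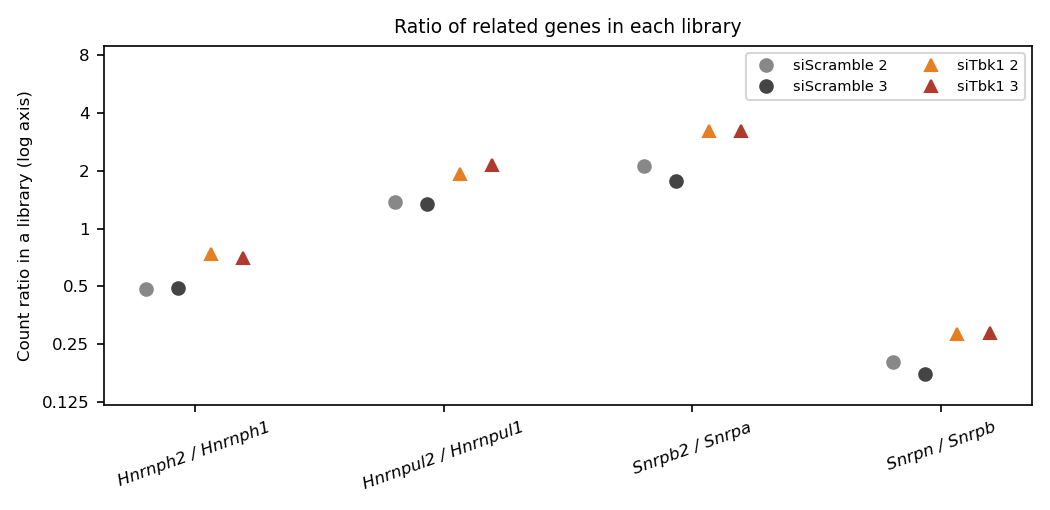
Ratio of the counts of related genes within each library on a log axis, with circles for siScramble and triangles for siTbk1. In each of the 4 pairs both siTbk1 libraries lie above both siScramble libraries, as for Hnrnph2 to Hnrnph1 at 0.741 and 0.703 against 0.486 and 0.489.

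For 29 of the 68 members the estimated count was not a whole number in at least 1 library, which is called fractional here. By family these were 3 SR, 14 hnRNP, 1 SF3A or SF3B, no U2AF, 8 Snrp and 3 Prpf genes. Of the 39 members with whole counts in all libraries, 11 rose (28.2%) and 14 fell (35.9%). Of the 29 with fractional counts, 11 rose (37.9%) and 2 fell (6.90%), namely Snrpb and Snrpd2. Among all 13953 tested genes, of which 3690 had fractional counts, 24.4% rose and 24.8% fell. Fractional counts and family overlapped, since 14 of the 29 were hnRNP genes. Outside that family, the fractional members that rose were Srsf3, the row named Snrpe, Snrpn, Prpf3, Prpf8 and Prpf4b. The part of family in the split was not tested. Whether reads of the members with fractional counts were shared with near-identical copies was not tested, and the levels of these members are uncertain to that extent. For all members but 2, Snrpe and Snrpg, the chromosome in the table was that of the RefSeq gene of the same name. In addition, 4 members overlapped a listed gene on the opposite strand (Hnrnpab, Hnrnph3, Prpf18 and Sf3a1). The library kit keeps strand, but whether counting used it is not given in the sources used here.

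Genomic span, the distance from a gene's start to its stop with introns, moved with the fold change over all genes. Across genes, Pearson's r between log2 fold change and log10 span was 0.18 over the 13953 tested genes and 0.14 over the 68 members, and genes are not independent replicates. The 12 members of at most 5 kb had a median log2 fold change of -0.03, beside -0.09 for all tested genes of that span. For the 17 members between 5 and 10 kb the medians were 0.15 and -0.11, for the 18 between 10 and 20 kb -0.04 and -0.04, and for the 17 between 20 and 40 kb 0.12 and 0.03. The 4 longest had a median of 0.10, beside 0.11. Sf3b5, Sf3a2 and U2af1l4 were in the 2 shortest span ranges, where the median of all tested genes was below 0. Hnrnph2 and Srsf1 lay there too and rose. Of the 12 members of at most 5 kb, 3 rose and 4 fell, and of the 17 between 5 and 10 kb, 8 rose and 4 fell. The part of span in the values of these members was not tested. With the span trend removed, the log2 fold change was -0.55 for Sf3b5, -0.54 for Sf3a2 and 0.60 for Hnrnph2.

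**Figure D5:**
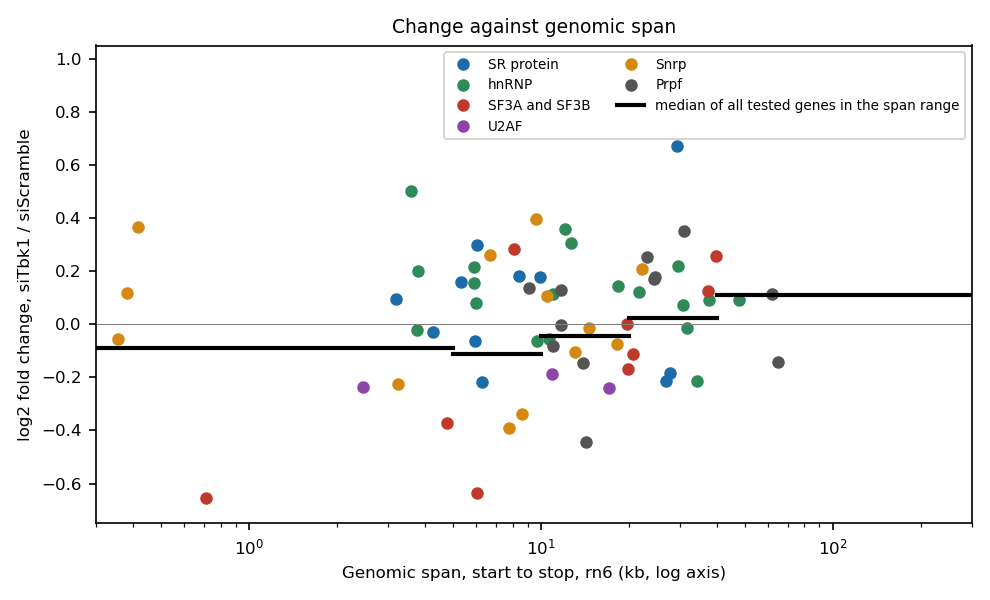
Log2 fold change of 67 of the 68 members against its genomic span in kb on a log axis, coloured by family, with black bars for the median of all tested genes in each span range. The bars run from -0.09 for the shortest genes to 0.11 for the longest. The 3 U2AF genes lie below them, and members of the other families lie on both sides.

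The wider splicing machinery was described with 6 lists of 196 other factors, of which 184 were tested. With siTbk1, 46 (25%) rose and 54 (29.3%) fell, beside 24.4% and 24.8% of all tested genes, with a median log2 fold change of 0.00. Among 37 snRNP and early spliceosome partners 8 rose and 15 fell, among 30 factors of the Prp19 complex and the catalytic steps 6 rose and 6 fell, and among 28 SR-like proteins, SR kinases and speckle proteins 7 rose and 8 fell. Of 58 other RNA-binding regulators 19 rose and 16 fell, of 16 snRNP assembly factors 3 rose and 5 fell, and of 15 exon junction and nonsense-mediated decay factors 3 rose and 4 fell. Past the fold limit were 3 that rose (1.63%) and 7 that fell (3.80%), beside 4.81% and 6.18% of all tested genes.

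Of these 10 genes, 7 came from the list of other RNA-binding regulators. Celf4 and Celf2, regulators of alternative splicing, fell by 1.49 and 1.00 on the log2 scale, from 113 and 146 normalized counts to 58.6 and 30.8 for Celf4 and from 584 and 643 to 295 and 319 for Celf2. Khdrbs2 and Pcbp4 fell by 0.72 and 0.70 on the log2 scale. The muscleblind protein Mbnl3 rose from 171 and 164 normalized counts to 311 and 297 (log2 fold change 0.86, edgeR adjusted p = 0.00014). The neuronal Hu proteins Elavl4 and Elavl2 rose by 0.72 and 0.69 on the log2 scale. Wbp11, which takes part in spliceosome activation, fell from 386 and 477 normalized counts to 169 and 138, with fractional counts. The speckle-associated Scaf1 fell by 0.85 and Cherp, a partner of the U2 snRNP, by 0.63 on the log2 scale, each with the groups apart.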

How the data were processed

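RNA from INS-1 832/13 cells was sequenced from stranded mRNA libraries, and the authors deposited estimated counts per gene, not scaled between samples. The submitters' processing notes name STAR 2.6.1d, Partek and rn6, while the annotation and the strand setting of counting are not given in the sources used here. Per library, 21.1% to 22.3% of values were not whole at a tolerance of 0.01. Counts were rounded. The filterByExpr function (minimum count 10) kept 13953 of 15172 genes, and TMM factors of 0.982 to 1.02 were applied. Groups were compared with edgeR 4.0.16 (glmQLFit and glmQLFTest) on treatment alone, in R 4.3.3, with Benjamini-Hochberg adjustment over all tested genes. Standard errors (SE) were derived from that test, as the absolute log2 fold change divided by the square root of the F statistic. They are no separate measure of spread. Calls used an adjusted p under 0.05, with a fold of at least 1.5 as a stricter rule. A count of 3 equals 0.0628 to 0.0781 CPM, counts per 1000000, which covers counting error only. Replicates differed beyond counting noise. Alternatives used limma 3.58.1 (voom) and DESeq2 1.42.0. Promoters came from RefSeq GRCr8, and figures were drawn with matplotlib 3.10.9 under Python 3.11.15.

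The members, the lists of other splicing factors and the markers were chosen with earlier results of these data known. The text names members past both limits, the 3 largest changes of each family at an adjusted p under 0.05, members fixed by role, and up to 3 genes of each list past both limits. The values of 1 member are not reported here, though it is included in the counts. Others named were chosen after their values were seen.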

Additional observations from a re-analysis of the deposited data

How the results depend on the processing

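Of the 38 members that passed, 24 kept their call in all 10 alternatives that used the 4 libraries and 17 also when each library was left out, 11 higher and 6 lower. With each library left out in turn, where the lone library of a group is assumed to vary like the other group, 12 to 23 members rose and 7 to 15 fell, 0 to 1 and 0 to 2 passed both limits, and 29 to 47 of the other splicing factors rose. The lowest counts came without siScramble 3 (12 higher, 29 other factors higher) and without siTbk1 3 (7 lower). In these fits the median of the Snrp genes ran from -0.032 to 0.020 and that of the U2AF genes from -0.29 to -0.15, and the hnRNP median was 0.074 without siScramble 3. With library size alone the medians were 0.049 for SR, 0.066 for hnRNP, -0.16 for SF3A and SF3B, -0.063 for Snrp and 0.083 for Prpf genes. Without the span trend, 2 members rose and 0 fell past both limits, and the medians were 0.20 for SR, 0.17 for hnRNP, -0.13 for U2AF and 0.040 for Snrp genes, with the same counts of 2 and 0 and medians of 0.20, 0.17, -0.13 and 0.036 when the replicate block was added. Library size alone ended the call of Srsf3, Srsf6, Srsf10, Hnrnpab, Hnrnpd, Snrpn and Prpf3, DESeq2 that of Srsf4, Srsf10, U2af1l4, Snrpn and Prpf3, and removal of the span trend that of Srsf9, Sf3b2, U2af1, U2af1l4 and Snrpd2. Calls were gained by Srsf2, Hnrnpa1, Hnrnpk, Snrpd1, Snrpg, Prpf31 and Prpf38b (higher) without the span trend, by Sf3a1, Snrpa1 and Prpf4 (lower) with library size alone, by Hnrnpf and Snrpd1 without siScramble 2, and by Sf3b6 and Prpf4 without siTbk1 2. The cause was not tested. Tested against the fold limit itself (glmTreat), 0 and 0 members passed, also at an unadjusted p under 0.05, where edgeR's main test had 1 and 2.

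With the replicate number as a block, 17 members rose and 13 fell, and Srsf4, Srsf6, Srsf10, Hnrnpab, Hnrnpd, Sf3b2, Prpf6 and Prpf3 lost their call. The labels name nothing that same-numbered samples share. Their totals were alike, at 47443061 and 47759013 for number 2 and 38811919 and 38428926 for number 3, and the reason was not tested. Deviations of same-numbered samples from the group means had a Pearson's r of 0.0041 and a Spearman's rho of -0.20 over 13953 genes. Over the 68 members Pearson's r was -0.23, and the numbers were not taken to pair the samples. Depth limits the genes with few counts most: the standard error was 0.18 on the log2 scale for Srsf12, at 90.3 to 183 normalized counts, and 0.05 for Hnrnph2.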
